A study of Mus musculus with 6 samples.

Results

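The cadherins and protocadherins described here are the genes of the calcium-dependent adhesion family that were measured in Sca1-enriched muscle myospheres, together with 4 catenins that link cadherins to the cytoskeleton. Members were the genes whose annotated symbol is Cdh followed by a number or begins with Pcdh, plus Ctnna1, Ctnnb1, Ctnnd1 and Jup, counted where a probe set was annotated to that gene alone. This gave 60 genes of 18193 and 112 probe sets of 35041. They fell into 5 type I cadherins, 11 type II cadherins, 5 other cadherins, 23 clustered protocadherins, 12 non-clustered protocadherins and the 4 catenins.

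Myospheres are floating cell clusters, here grown from hind-leg muscle of male Balb/c mice after cell sorting on Sca1, a surface antigen of several progenitor types. The cells spent 4 days in a neural stem cell medium, labelled neurocult, with the supplements bf6f (spelled so in the labels), LIF, B27 and EGF, and RNA was taken at passage 1 from 2000000 cells. Total RNA of replicates 1, 2 and 3 was hybridised to 2 Affymetrix chips, MOE430A and MOE430B, giving 6 arrays of 1 group with no second condition. All arrays carry 1 submitter sample number, so the spread between replicates may be technical. P-values for a signal against a background limit, described below, measure only that spread. Those for differences between replicates are judged by the disagreement between the 2 chips. The animals' age and the number of mice pooled are not given in the labels.

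Classical cadherins (type I and type II) span the membrane, bind the same or a related cadherin on the next cell through their outermost domain, and hold β-catenin or plakoglobin and p120-catenin on their cytoplasmic tail, with α-catenin joining the complex to actin. Protocadherins carry more of the same extracellular repeats but lack the catenin-binding tail. The clustered protocadherins lie in adjoining α, β and γ gene arrays and are best known for giving neurons individual surface identities, whereas the non-clustered ones are scattered in the genome and act in tissue patterning. In muscle, M-cadherin (Cdh15) and N-cadherin (Cdh2) are known from satellite cells and myoblasts, and cadherin-11 (Cdh11) from fibroblasts and other mesenchymal cells.

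A signal was called above background when it exceeded, on all 3 arrays of its chip, a limit set on each array by genes of other tissues such as odorant receptors and keratin-associated proteins (the 95th percentile of their signals). The limit was 784 to 822 on the MOE430A arrays and 2542 to 3237 on the MOE430B arrays, in MAS5 signal units, and 2.65% and 4.55% of the reference probe sets themselves passed. Probe sets share no common scale, so every value is set against the limit of the array it came from, as a signal, a fold over that limit or its log2. Across probe sets, which are not independent replicates, the log2 signals of 2 replicates correlated at 0.916 to 0.922 for MOE430A, and for MOE430B at 0.749 to 0.773. The MOE430B array of replicate 1 came from a different chip lot than the other 2 MOE430B arrays, per the headers of the array files. As a check of the label, fibro-adipogenic markers were above the limit for 6 of 6 genes (Pdgfra at 15.7 times the limit, Dcn at 184 times), muscle stem cell and myoblast markers for 1 of 6 (Vcam1), and neural markers for 0 of 6. Of the other muscle markers, Myog (1.39 times) and Myod1 (1.09 times) were each above it on 2 of 3 arrays. Limma did not separate these from the limit (adjusted p = 0.0728 and 0.565). Des lay at 0.703, Pax7 at 0.376 and Myf5 at 0.0881 times the limit. Other cell types had some markers above it: 4 of 6 for pericytes and smooth muscle (66.7%), 2 of 6 for leukocytes (33.3%) and, as given beside the cadherins of each, endothelial, epithelial and Schwann cell genes. For all these marker counts the share over all genes was 36.2%. RNA of a minor cell type and a low level in every cell cannot be told apart in these bulk samples.

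Of the 60 member genes, 8 (13.3%) were above the limit by at least 1 probe set, against a background of 36.2% of all 18193 genes. These were the catenins Ctnnb1, Ctnna1 and Ctnnd1, the cadherins Cdh2, Cdh11 and Cdh13, and the protocadherins Pcdh18 and Pcdh19. By family, 1 of 5 type I cadherins, 1 of 11 type II cadherins, 1 of 5 other cadherins, 0 of 23 clustered protocadherins, 2 of 12 non-clustered protocadherins and 3 of 4 catenins were above it. Without the catenins the count was 5 of 56 (8.93%). Over the members the median of the log2 ratio of signal to limit, taking the best probe set of each gene, was -1.22, and over all genes it was -0.42. The background rose with the number of probe sets of a gene, from 22.1% of genes with 1 probe set to 42.4% with 2, 53.4% with 3 and 66% with 4 or more. Of the members, 30 had 1 probe set, and none of these was above the limit, while all 8 members above it had 2 or more. With the array median as the limit, 18 members (30%) passed against 53.8% of all genes, and with MOE430A alone 5 of 51 (9.8%) against 42.7%.

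**Figure D1:**
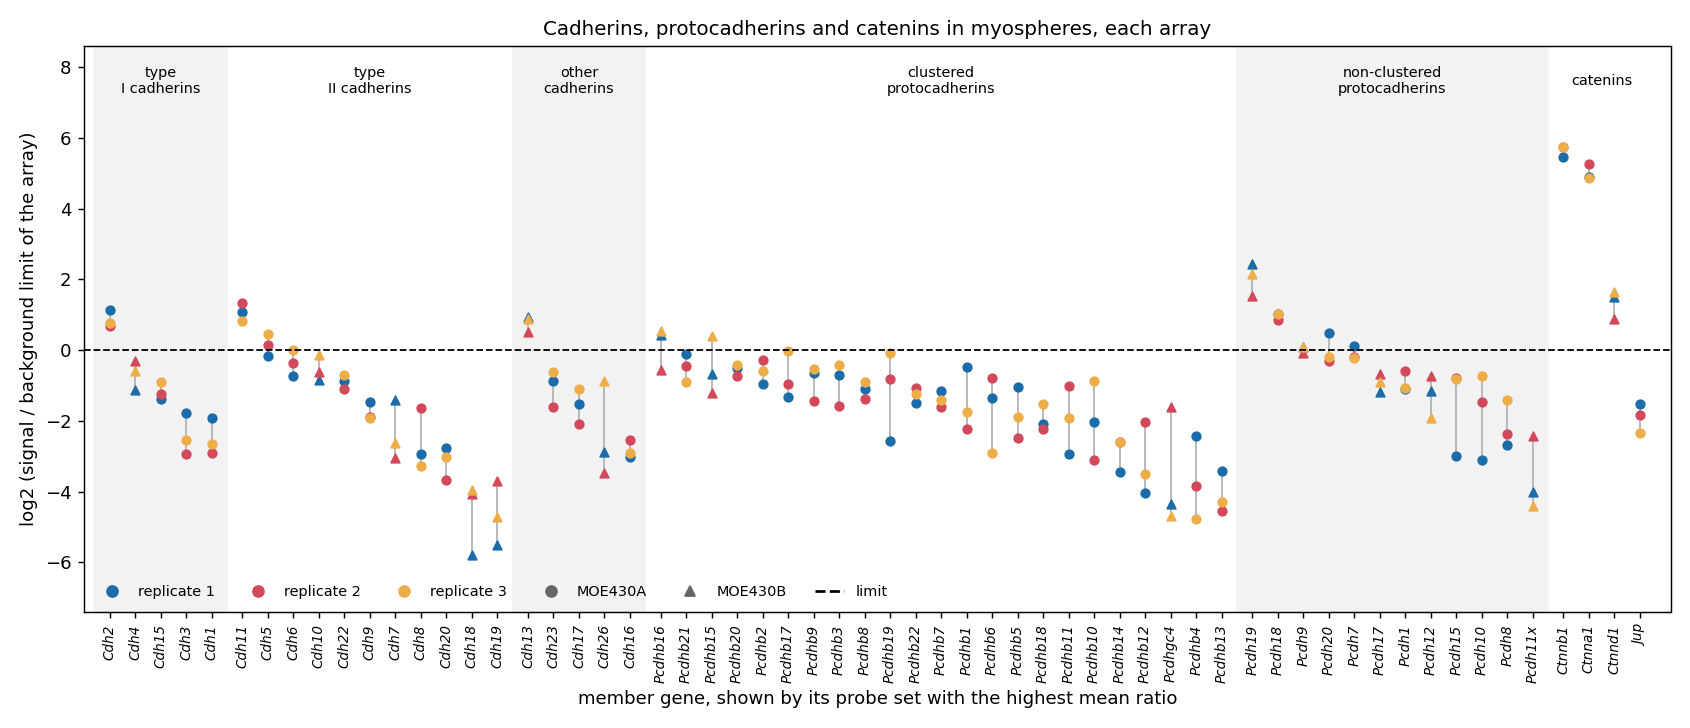
Log2 of signal over the array's background limit for each of the 60 member genes, by family, on every array (colours are replicates 1 to 3, circles MOE430A, triangles MOE430B, each gene shown by its probe set with the highest mean ratio; the dashed line is the limit, and grey lines join the 3 arrays). The 8 genes with all 3 points above the line include 3 catenins and no clustered protocadherin.

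**Figure D2:**
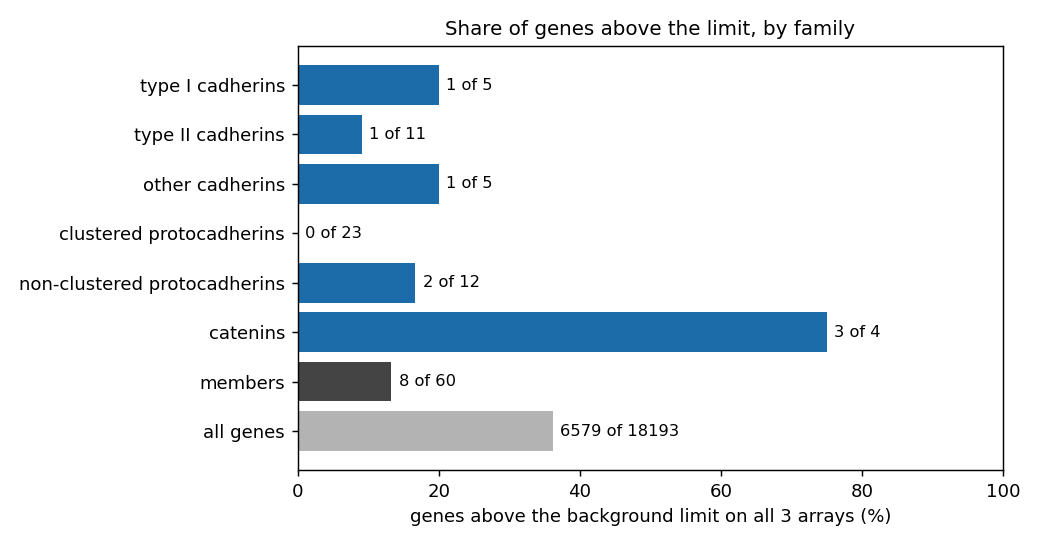
Percent of measured genes above the background limit on all 3 arrays, in each family, in all 60 members and in all 18193 genes, with the counts beside the bars. The catenins reach 75%, the cadherin and protocadherin families lie between 0% and 20%, and all genes lie at 36.2%.

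Of the members, the catenins Ctnnb1 and Ctnna1 lay farthest above their limits, while Ctnnd1 was below Pcdh19 in its fold over the limit and Jup did not pass. β-catenin (Ctnnb1), which binds the cadherin tail and also carries Wnt signals to the nucleus, read 35802, 42256 and 43700 in replicates 1, 2 and 3 on MOE430A (40586 ± 4206, SD, n = 3), or 50.0 times the limit (limma against the limit, adjusted p = 5.31e-08). All 3 Ctnnb1 probe sets are of shared sequence, so the gene was not measured without such probe sets. α-catenin (Ctnna1), the actin link, read 24461, 29969 and 24154 (26195 ± 3272), or 32.3 times the limit (limma, adjusted p = 5.31e-08), by a probe set of shared sequence. A second Ctnna1 probe set, with no shared-sequence suffix, read 16227, 14228 and 10456, or 16.6 times the limit. All 9 of these signals lay well above the limit of their array. p120-catenin (Ctnnd1), which holds cadherins at the membrane, read 9135, 5418 and 7900 on MOE430B (7484 ± 1893), 2.53 times that chip's limit (limma, adjusted p = 4.62e-05). This Ctnnd1 call rested on 1 probe set of shared sequence, and the other 2 probe sets read 0.602 and 0.788 times their limits, the latter above it in replicate 3 alone. Plakoglobin (Jup), the β-catenin relative that also serves desmosomes, read 285, 218 and 162 on MOE430A, 0.267 times the limit and below it on every array (limma, adjusted p = 0.00283). Jup had only this probe set, also of shared sequence.

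Among the type I cadherins, N-cadherin (Cdh2) alone passed. It read 1782, 1266 and 1391 on MOE430A (1479 ± 269), 1.81 times the limit (limma, log2 ratio 0.86 ± 0.14 SE, adjusted p = 0.000928), and its other probe set read 364, 610 and 473, below the limit on all 3 arrays. All 3 values of the first probe set were above every array's limit and all 3 of the second below it. E-cadherin (Cdh1), the epithelial cadherin, read 217, 104 and 132, or 0.178 times the limit. P-cadherin (Cdh3), its epithelial and placental relative, read 236, 103 and 142 by its best probe set, or 0.187 times the limit. M-cadherin (Cdh15) read 313, 329 and 442, or 0.442 times the limit (limma, adjusted p = 0.00678). These 3 genes lay below the limit on every array. R-cadherin (Cdh4) came nearest among the rest, at 1479, 2378 and 1672 on MOE430B, or 0.625 times the limit, a difference that limma did not separate from it (adjusted p = 0.0553). Epithelial markers were above the limit for 2 of 7 genes (28.6%, beside 36.2% of all genes). These were Krt8 at 1.11 times, which limma did not separate from the limit (adjusted p = 0.391), and Epcam. Epcam passed by an MOE430B probe set of shared sequence that read 47832, 18602 and 8560. The other Epcam probe set was not above the limit. The summed MOE430A signal, which compares arrays and not lists, ranged from 2572 to 3291 for the epithelial markers, without the MOE430B signal of Epcam, and from 7179 to 8382 for the muscle markers, Vcam1 included. Whether a few epithelial or myogenic cells contributed was not tested.

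Among the type II cadherins, Cdh11 alone passed. It read 1740, 1982 and 1452 on MOE430A (1725 ± 265), 2.12 times the limit (limma, log2 ratio 1.08 ± 0.13 SE, adjusted p = 0.000253). A second Cdh11 probe set, on MOE430B, read 877, 1117 and 972, or 0.34 times that chip's limit, so the 2 chips gave opposite calls. VE-cadherin (Cdh5), the cadherin of endothelial junctions, read 736, 862 and 1127, above the limit in replicates 2 and 3 and below it in replicate 1, and 1.11 times the limit on average (limma, adjusted p = 0.462). Its other probe set read 163, 240 and 227, below the limit on every array. Endothelial markers were above the limit for 3 of 7 genes (42.9%, beside 36.2% of all genes), namely Kdr, Esam and Cldn5. Pecam1 lay at 0.189 and Tie1 at 0.0298 times the limit, and the summed MOE430A signal of the endothelial markers was 4720 to 6092. Their part in the Cdh5 signal was not tested. Cdh6, which marks kidney and neural crest development, read 495, 609 and 817, or 0.775 times the limit, and did not reach it on any array. Cdh10, a brain cadherin, reached 0.69 times the limit by the best of its 4 probe sets. The remaining 7 genes, Cdh7, Cdh8, Cdh9, Cdh18, Cdh19, Cdh20 and Cdh22, lay at 0.0402 to 0.538 times the limit by their best probe sets. Of these, Cdh19, known from Schwann cell precursors, was the lowest, at 71.1, 226 and 97.2 on MOE430B. Schwann cell markers were above the limit for 1 of 4 genes (25%, beside 36.2% of all genes), namely Sox10, by a probe set of shared sequence.

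Of the cadherins outside these types, T-cadherin (Cdh13) passed. It is held in the membrane by a lipid anchor, lacks the catenin-binding tail and is an adiponectin receptor of vessel walls and muscle. It read 6192, 4173 and 4705 on MOE430B (5023 ± 1047), 1.71 times the limit (limma, adjusted p = 0.00334). The 3 MOE430A probe sets of Cdh13 were below their limit on every array, the best at 526, 500 and 499 (0.628 times) and the others at 0.0312 and 0.0245 times. Cdh13 was the only one of the 8 genes to lose its call when the 99th percentile set the limit. Kidney cadherin (Cdh16), intestinal cadherin (Cdh17), the hair-cell cadherin Cdh23 and Cdh26 lay at 0.141, 0.336, 0.487 and 0.188 times their limits.

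No clustered protocadherin was above the limit, in 23 genes and 29 probe sets. These were 22 of the β array and Pcdhgc4 of the γ array. On MOE430A their 23 probe sets read 13.5 to 811 and gave 0 of 69 single-array signals above the limit. Over all single-gene probe sets of that chip 25164 of 61140 single-array signals were above, and 35.6% of probe sets were above on all 3 arrays. The median log2 ratio to the limit of these probe sets was -1.68, against -0.51 for all single-gene probe sets of MOE430A and -2.34 for the reference genes of other tissues. By limma 25 of the 29 lay below the limit and the other 4 could not be separated from it. On MOE430B 3 of 18 single-array signals exceeded the limit, all from 2 genes. Over all single-gene probe sets of that chip 8453 of 43983 did, and 13.5% of probe sets were above on all 3 arrays. One probe set of Pcdhb16 read 4327, 1973 and 3692, above the limit in replicates 1 and 3 and below it in replicate 2 (1.09 times, limma, adjusted p = 0.649), while its other 2 read 0.31 and 0.0493 times their limits. Pcdhb15 read 2006, 1258 and 3349 by a probe set of shared sequence, above the limit in replicate 3 alone, and its MOE430A probe set read 65.3, 49.6 and 48.4. The other clustered genes reached at most 0.713 times the limit by their best probe sets, and Pcdhgc4 read 158, 953 and 98.5. Without replicate 2, Pcdhb16 passed and the count was 1 of 23.

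The α array could not be read gene by gene, because its transcripts share their 3' exons and the 6 probe sets for it are each annotated to 9 to 14 Pcdha genes. They are not counted as members. All 6 were below the limit on every MOE430A array, with signals from 15.3 to 474 and folds of 0.0437 to 0.42. 

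Classical and clustered genes were counted side by side on each chip. On MOE430A 8 of 48 single-array signals of type I and type II genes exceeded the limit, all from Cdh2, Cdh11 and Cdh5. Of these, Cdh2 and Cdh11 had a probe set above it on all 3 arrays. The clustered genes gave 0 of 69, and all single-gene probe sets 25164 of 61140. The median log2 ratios on MOE430A were close, at -1.45 for type I, -1.71 for type II and -1.68 for clustered probe sets. Over all single-gene probe sets of that chip the median was -0.51. On MOE430B the counts ran the other way, with 0 of 6 for type I, 0 of 36 for type II and 3 of 18 for the clustered genes. All single-gene probe sets of that chip gave 8453 of 43983. Families were compared by counts only, with no test, since genes are not replicates.

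Of the 12 non-clustered protocadherins, Pcdh18 and Pcdh19 were above the limit. The 250 bases before their annotated start sites are shown with those of Cdh15, the muscle cadherin that stayed below the limit, from RefSeq (GRCm38.p6), written 5′ to 3′ along the gene with each E-box (CANNTG, the same on both strands) in capitals. E-boxes are the words that myogenic factors and the Snail, Zeb and Twist factors bind.
Pcdh19, chrX:133688994-133689243, strand -: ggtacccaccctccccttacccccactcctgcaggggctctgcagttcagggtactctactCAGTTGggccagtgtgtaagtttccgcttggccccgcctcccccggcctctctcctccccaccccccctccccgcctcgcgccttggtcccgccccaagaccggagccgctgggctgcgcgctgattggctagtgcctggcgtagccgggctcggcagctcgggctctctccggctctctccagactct
Pcdh18, chr3:49757317-49757566, strand -: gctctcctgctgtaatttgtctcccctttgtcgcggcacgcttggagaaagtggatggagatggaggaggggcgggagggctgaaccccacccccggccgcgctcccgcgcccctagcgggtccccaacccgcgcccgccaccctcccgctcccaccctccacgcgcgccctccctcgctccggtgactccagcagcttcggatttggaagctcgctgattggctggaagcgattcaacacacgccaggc
Cdh15, chr8:122848124-122848373, strand +: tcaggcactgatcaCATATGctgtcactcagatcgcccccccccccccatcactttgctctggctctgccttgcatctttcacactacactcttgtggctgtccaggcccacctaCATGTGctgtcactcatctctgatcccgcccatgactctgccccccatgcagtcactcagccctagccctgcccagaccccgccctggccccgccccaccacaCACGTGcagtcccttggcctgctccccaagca
The Pcdh19 window held 1 E-box, the Pcdh18 window 0 and the Cdh15 window 3. Of all 32851 windows of this length, 66.2% held at least 1, and of the 28 windows matched to 23 members, 42.9% did. By call, 2 of 6 windows of members above the limit and 10 of 22 windows of members not above it held at least 1. A match describes these letters and is not a bound site.

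Pcdh19, an X-linked adhesion protein that pairs with N-cadherin, was the only one of the 8 for which every probe set, 3 of 3, was above the limit. Its best probe set read 17489, 8441 and 11213 on MOE430B (12381 ± 4635), 4.10 times the limit (limma, log2 ratio 2.03 ± 0.17 SE, adjusted p = 4.36e-07). Another read 13124, 7985 and 7696 (3.22 times) and the last 9402, 6853 and 9346 (2.92 times). All 9 signals were above the limit of their array. In each probe set replicate 1 was highest, by as much as 2.07-fold over the lowest array. All 5 member probe sets above the limit on MOE430B, including those of Cdh13 and Ctnnd1, were highest in replicate 1, and so were 56.2% of all MOE430B probe sets above it (20.4% were highest in replicate 2 and 23.5% in replicate 3). On MOE430A, of 7 member probe sets above the limit 2, 2 and 3 were highest in replicates 1, 2 and 3, where the background was 34.3%, 32% and 33.6%. Relative to the arrays' own limits replicate 1 was highest in 3 of the 5. That array also had the highest limit and a chip lot of its own, and the part of the lot was not tested. Each of the 5 was above the limit in the arrays of both lots, which the call on all 3 arrays required.

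Pcdh18 read 1647, 1406 and 1654 on MOE430A (1569 ± 141), 1.94 times the limit (limma, log2 ratio 0.95 ± 0.12 SE, adjusted p = 0.000231). Its other 2 probe sets were below the limit on every array, at 0.565 and 0.0247 times. Pcdh7, Pcdh9 and Pcdh20, best known from the nervous system, lay near the limit. Pcdh9 read 3421, 2756 and 2684 on MOE430B, above the limit in replicates 1 and 3 (1.02 times). Pcdh20 read 1147, 629 and 722 and Pcdh7 879, 684 and 697 on MOE430A, each above it in replicate 1 alone (0.996 and 0.927 times). By limma none of these 3 could be separated from the limit (adjusted p = 0.927, 0.978 and 0.576). With the 90th percentile as the limit all 3 passed and the count of non-clustered protocadherins rose from 2 to 5. The remaining 7 lay at 0.0812 to 0.528 times the limit by their best probe sets. They include Pcdh12, a protocadherin of endothelium, at 0.414 times, Pcdh10 at 0.294 times by the best of 6 probe sets, and Pcdh1 at 0.526 times.

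Probe sets of 1 gene often disagreed. Of the 8 genes above the limit, 7 had at least 1 probe set that was not above it. Among all genes above the limit with 2 or more probe sets, 83.1% had such a probe set, so this share was no feature of the members. The range was widest for Ctnna1, from 0.0475 to 32.3 times the limit, and Ctnnb1, from 0.112 to 50.0 times, for which another probe set was just above it at 1080, 795 and 1097 (1.21 times, limma, adjusted p = 0.136). In total 12 of 112 member probe sets (10.7%) were above the limit on all 3 arrays. By limma 11 were above it and 87 below. Over all probe sets limma placed 32.7% of MOE430A above its limit and 47.7% below, and 8.79% of MOE430B above and 73.2% below.

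**Figure D3:**
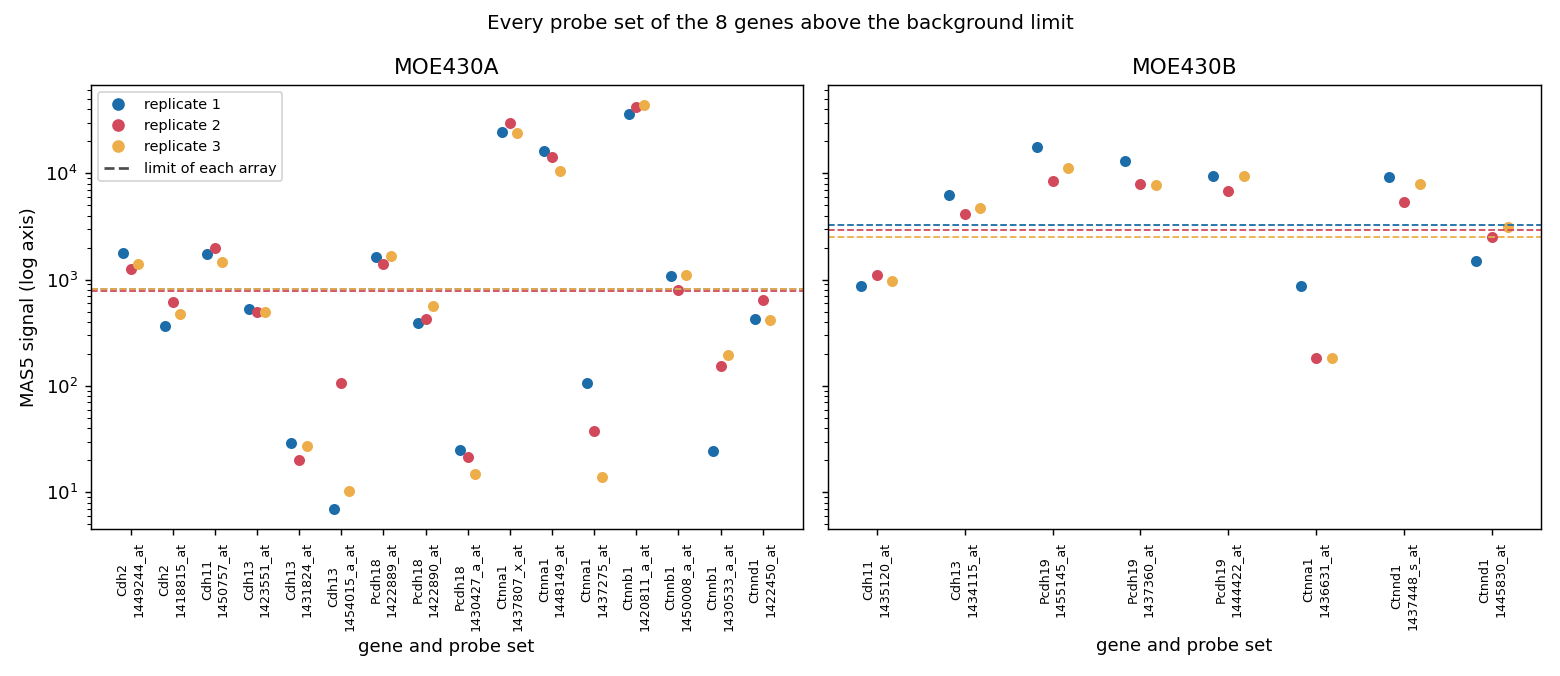
MAS5 signal (log axis) of every probe set of the 8 genes above the limit, on MOE430A and MOE430B, with 1 point per replicate and dashed lines for the limit of each array in the same colour. The 3 Pcdh19 probe sets lie above the lines at 6853 to 17489, whereas Cdh13, Pcdh18, Cdh2, Cdh11 and the catenins each have probe sets on both sides of the limit.

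Between replicates no member could be tested in the same way as other genes. The test takes as its spread the disagreement between the chips, which carry different probe sets. It needs a gene to exceed the average limit of each chip by some probe set. Of the 619 genes that did, 0 were members, and 7 of them (1.13%) differed (limma moderated F-test, adjusted p under 0.05). Without the filter on low signal, 18 members entered among 3807 genes. Of these 0 differed by limma after adjustment, with adjusted p from 0.942 to 0.977, and 1, Ctnna1, had an unadjusted p under 0.05 (0.0315). The background there was 0%, so the count says nothing particular of the members. Within a chip, member probe sets above the limit spread by a median of 1.36-fold between the highest and lowest array on MOE430A and 1.69-fold on MOE430B, beside 1.28-fold and 1.35-fold for all probe sets above it. Members not above the limit spread by 1.86-fold and 2.71-fold, beside 2.00-fold and 2.44-fold.

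Of 20 adherens junction partners, most of which act on the cytoplasmic side of cadherins, 13 (65%) were above the limit, beside 36.2% of all genes. α-actinin 1 (Actn1), an actin crosslinker, read 15929, 16852 and 18636 on MOE430A (21.2 times the limit), vinculin (Vcl), which binds stretched α-catenin, 4072, 4394 and 3547 (4.94 times), and zyxin (Zyx) 4606, 3637 and 5230 (5.50 times). All the values given for these 3 genes were above the limit, each gene by 1 probe set. Actn1 was above by 1 of 3 probe sets, and Vcl and Zyx by 1 of 2 each. Of the nectins, immunoglobulin-type adhesion proteins of the same junction, Nectin2 and Nectin3 were above the limit at 1.45 and 3.02 times and Nectin1 and Nectin4 were not. Nectin2 was above by 1 of 2 probe sets and Nectin3 by 1 of 6. The α- and δ-catenins of neurons, heart and testis, Ctnna2, Ctnna3 and Ctnnd2, were not above it, at 0.416, 0.342 and 0.855 times.

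Genes for the processing of cadherin proteins were above the limit for 6 of 6 measured. Adam10, which sheds the cadherin ectodomain, read 5585, 5116 and 4830 (6.39 times), and Furin, which cuts off the cadherin propeptide, 5324, 5500 and 5606 (6.78 times). Adam10 was above the limit by 1 of 4 probe sets and Furin by its only probe set. Transcription factors listed as repressors of Cdh1 were above the limit for 6 of 7. Snai2 read 109983, 97517 and 81698 on MOE430B (33.1 times), Zeb1 7388, 4596 and 5816 (7.21 times) and Twist1 1385, 1338 and 2344 (2.02 times) on MOE430A, while Snai1, at 844, 680 and 1017, was above it in replicates 1 and 3. The Snai2 values are from a probe set of shared sequence. Snai2 was above the limit by 2 of 2 probe sets and Zeb1 by 2 of 4. Of 20 other members of the cadherin superfamily, 4 were above the limit. Fat1, a giant cadherin, read 36314, 19765 and 28054 on MOE430B (9.42 times), Clstn1 and Clstn2, calsyntenins, stood at 2.40 and 2.08 times, and Dchs1, a ligand of Fat proteins, at 1.09 times. Dchs1 exceeded the limit on all 3 arrays, but limma did not separate it from the limit (adjusted p = 0.615). The desmosomal cadherins Dsg2, Dsc2 and Dsc3 were not above it, at 0.67, 0.451 and 0.369 times. The lists were compared with the 36.2% of all genes by count only, and nothing in the design tests how these genes relate to the cadherins.

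**Figure D4:**
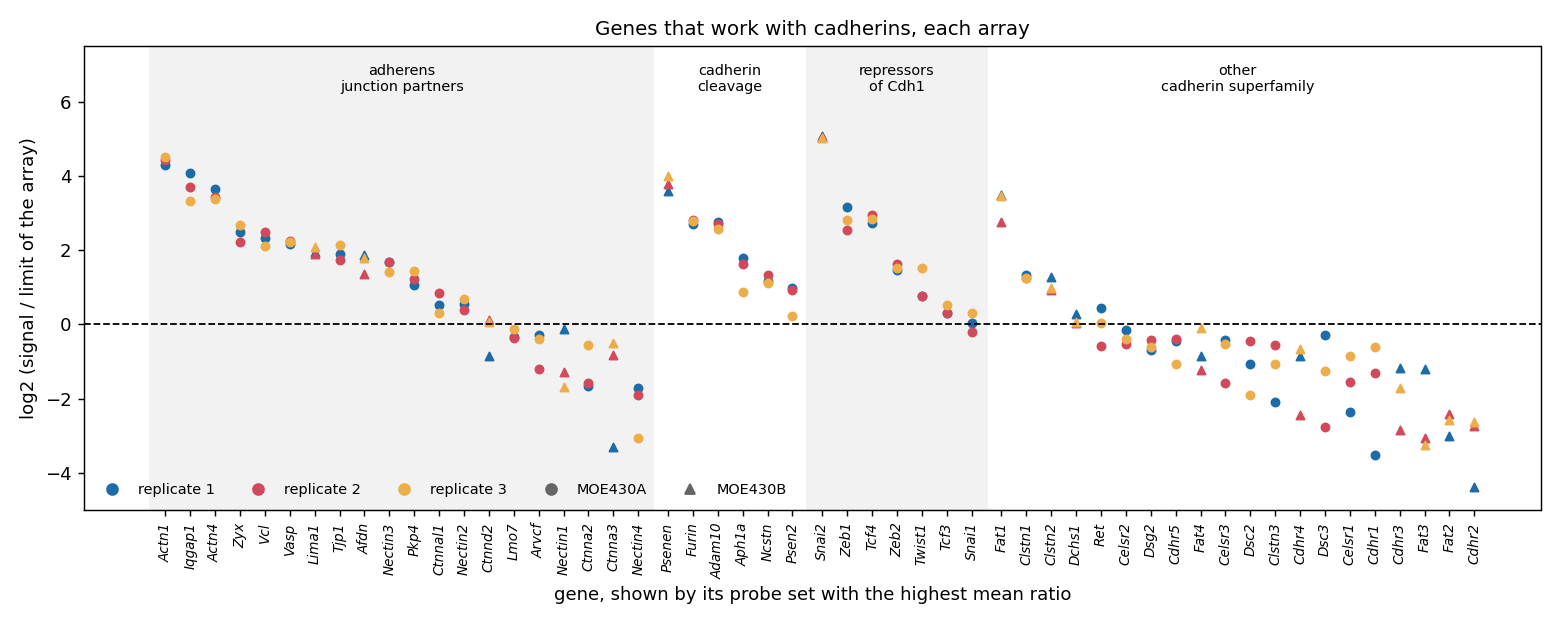
Log2 of signal over the array's background limit for genes that work with cadherins and for other cadherin superfamily genes, on every array (colours are replicates, circles MOE430A, triangles MOE430B, the dashed line the limit). The 6 cleavage genes and 6 of 7 Cdh1 repressors have all 3 points above the line, against 13 of 20 junction partners and 4 of 20 superfamily genes.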

How the data were processed

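The authors deposited 1 table of linear MAS5 signal intensity per chip. MAS5 is named in the submitters' processing notes, with its version not given in the sources used here. Every deposited array had a mean of 1500 to 1501 after trimming 2% from each end, so each array was scaled alone and chips are not on 1 scale. Array experiment files, of other content, were read for chip, lot and scan day, per the file headers. All arrays of a chip were scanned on 1 day.

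MOE430A had 20393 probe sets annotated to 1 gene, 691 to several and 1606 to none; MOE430B had 14674, 245 and 7656. In a RefSeq table (GRCm38.p6) 20364 and 14499 of the single-gene probe sets matched. Probe sets without exactly 1 gene, and controls, stayed out of all counts of genes.

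The background limit rested on 151 and 44 reference probe sets. Limma 3.58.1 in R 4.3.3 tested log2(signal/limit) against 0 per chip, two-sided, with an intensity trend and Benjamini-Hochberg adjustment over all 22690 or 22575 probe sets, taking the limit as fixed. Limma's moderated F-test compared replicates with chip as covariate, so its spread was the disagreement between the chips. On simulated data the first recovered 200 of 200 probe sets set at a log2 ratio of 2 and called 13 of 200 set at 0; the second recovered 95 of 100 genes. A gene is shown by its probe set with the highest mean ratio, and all genes above the limit are named, with the key cadherins and catenins. Shared sequence means IDs ending in _x_at, _s_at or _a_at. Only 3 arrays per chip limit the precision. Members and lists were chosen with earlier results of these data known. Alternatives changed the limit, call rule, probe sets, chips, normalization and replicates. Python 3.11.15, pandas 2.3.3 and numpy 2.4.6 did the rest.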

Additional observations from a re-analysis of the deposited data

How the results depend on the processing

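The calls of Cdh2, Cdh11, Ctnna1 and Pcdh18 held under each of 13 alternatives, and those of Ctnnb1 and Pcdh19 under the 12 that measured them. Cdh13 lost its call with the 99th percentile as limit and with MOE430A alone (log2 ratio -0.67). Ctnnd1 lost it with MOE430A alone (-0.73) and without probe sets of shared sequence (-0.34). With MOE430B alone, an alternative added after the data were seen, 3 members passed, and Cdh11 (-1.55) and Ctnna1 (-3.23) did not. The count of members was 18 with the array median as limit, 5 of the 51 measured with MOE430A alone, and 8 to 10 when 1 replicate was left out. Pcdh19 was not measured on MOE430A, whereas Cdh13 and Ctnnd1 were measured there and did not pass. With the array median as limit 2 type I, 4 type II, 2 clustered and 6 non-clustered genes passed, and limma placed 21 member probe sets above the limit in place of 11. With the 90th percentile 2 type II and 5 non-clustered genes passed, and with the 99th percentile 0 other cadherins. When at least 2 of 3 arrays sufficed, 2 type II and 1 clustered gene passed. With MOE430A alone 0 other cadherins and 1 non-clustered gene passed, and without shared-sequence probe sets 1 of 2 measured catenins. Leaving out 1 replicate gave 1 to 2 type II genes (2 without replicate 1, by Cdh5) and 0 to 1 clustered gene (1 without replicate 2, by Pcdhb16). Genes that differed between replicates by limma numbered 4 with array median centring (39 at an unadjusted p under 0.05), 0 with quantile normalization (36), 0 without an intensity trend (56), 0 without the filter on low signal (92) and 0 to 7 when a replicate was left out (0 without replicate 2, 3 without replicate 3); an ordinary F-test gave 0 (25). The cause was not tested for any of these. No paired analysis was possible because the replicate numbers are shared only between the 2 chips, which carry different probe sets for the members. The chips were not tested against each other, and entered the test between replicates only as a covariate.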

Other observations

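The RefSeq promoter windows of members above the limit (6 windows of Ctnnb1, Ctnnd1, Pcdh18 and Pcdh19) had a median ratio of observed to expected CpG of 0.874 and a GC content of 68.6%. Those of members not above it (22 windows of 19 genes) had 0.5 and 58.2%, and all 32851 windows 0.373 and 52.4%. Windows of 1 gene overlap, the matched genes are 23 of 60, and the difference was not tested.

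Epcam, measured by an MOE430B probe set of shared sequence, read 47832, 18602 and 8560 in replicates 1, 2 and 3, while Cdh1 stayed at 0.178 times its limit. The other Epcam probe set was not above the limit.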
